A study of Arabidopsis thaliana with 12 samples.

Results

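Dehydrins are a family of hydrophilic, largely unfolded plant proteins that accumulate when cells lose water, in the cold and in maturing seeds. They carry a lysine-rich stretch, the K segment, that folds into a helix on membranes, and many also carry a serine stretch that is phosphorylated or a tyrosine-containing Y segment near the start of the protein. Their genes are known targets of ABF-type bZIP factors, which bind abscisic acid response elements (ABRE), and of CBF and DREB2 factors, which bind dehydration response elements (DRE). The 10 dehydrin genes described here were selected by locus identifier out of 33602 genes in the tables. The selection rule used no measured values, although earlier results of these data were known when it was made. The genes were ERD10 (AT1G20450), ERD14 (AT1G76180), COR47 (AT1G20440), RAB18 (AT5G66400), XERO1 (AT3G50980), XERO2 (AT3G50970), HIRD11 (AT1G54410), AT2G21490, AT4G38410 and AT4G39130.

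Polyadenylated RNA of whole Arabidopsis thaliana seedlings was sequenced in 12 libraries. The ahl10-1 groups carried the T-DNA insertion Salk_073165 in AHL10, which encodes an AT-hook DNA-binding protein, and the WT groups were Col-0. The 4 groups of 3 libraries were ahl10-1 at -0.7 MPa (stress), ahl10-1 at -0.25 MPa (control), WT at -0.7 MPa and WT at -0.25 MPa. Stress was imposed on day 7 with agar plates infused with polyethylene glycol, and all seedlings, grown in continuous light without sugar, were taken 96 h later. The mutant is represented by 1 T-DNA line, and the labels describe the 3 libraries of each group as independent biological experiments.

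The tables held 57996104 to 68555138 reads in genes per library. Levels in CPM are read counts relative to library size, after scaling by the trimmed mean of M values (TMM). AHL10 itself stood at 27.9 to 33.0 CPM in ahl10-1 stress against 63.2 to 65.4 CPM in WT stress, and at 21.3 to 25.7 CPM in ahl10-1 control against 46.1 to 46.8 CPM in WT control, so 46.9% and 49.8% of the WT level of its transcript remained. Of the 10 dehydrins, 9 had enough reads to be tested among 22604 genes. AT4G39130 had 0 to 9 reads per library and was not tested. No read assigned to a dehydrin was counted as multi-mapped in any library, although ERD10, ERD14 and COR47 are close relatives. The annotated starts of RAB18 and of AT5G66410 on the opposite strand overlap, which makes the RAB18 counts uncertain to that extent, and whether the counting used strand is not given in the sources used here.

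The feature shared by the family is visible in the coding sequence. The stretch of 15 residues best shared by all members, which lay in XERO1, was located in each gene, and 7 of the 10 stretches are shown: both tandem pairs, RAB18 and AT4G38410, which passed the stress test in WT, and HIRD11, the most divergent. Sequences are from RefSeq (build TAIR10.1), 5′ to 3′ on the coding strand. Capitals mark codons for residues identical to those at the same place in XERO1.
XERO1 (chr3:18942551-18942595, plus strand): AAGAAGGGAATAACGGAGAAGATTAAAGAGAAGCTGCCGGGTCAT
RAB18 (chr5:26518649-26518693, minus strand): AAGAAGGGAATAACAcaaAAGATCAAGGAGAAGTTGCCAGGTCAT
XERO2 (chr3:18940858-18940902, plus strand): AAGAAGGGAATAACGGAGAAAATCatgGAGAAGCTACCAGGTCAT
COR47 (chr1:7085070-7085114, minus strand): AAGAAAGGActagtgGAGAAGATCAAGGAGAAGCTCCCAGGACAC
ERD10 (chr1:7088415-7088459, minus strand): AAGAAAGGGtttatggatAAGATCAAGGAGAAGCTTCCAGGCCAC
AT4G38410 (chr4:17981530-17981574, plus strand): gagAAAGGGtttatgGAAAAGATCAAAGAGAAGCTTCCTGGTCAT
HIRD11 (chr1:20310434-20310478, minus strand): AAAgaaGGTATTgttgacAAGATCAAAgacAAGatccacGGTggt

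In this stretch RAB18 and XERO2 shared 14 of 15 residues with XERO1, COR47 shared 13, ERD10 and AT4G38410 shared 12 and HIRD11 shared 8. Of the members not shown, ERD14 and AT2G21490 shared 13 and AT4G39130 shared 11. The number of copies with at least 9 identical residues separated the members. XERO2, which is built largely of K segments, had 6 such copies, COR47 had 3, AT4G39130 had 1 and HIRD11 had 0, while the other 6 members had 2 each. By translated RefSeq coding sequence, COR47 (265 residues), ERD10 (260) and ERD14 (185) had between 24.9% and 27.9% acidic residues, a longest serine run of 7 and net charges of -35, -20 and -9. AT4G38410 and HIRD11 each had 24.5% acidic residues, with net charges of -5 and -2, so this content was not particular to the 3. ERD10, ERD14 and COR47 are called the acidic branch here, and the identity of aligned residues was 71.6% between ERD10 and ERD14 and 70.3% between ERD10 and COR47, beside 56.8% between ERD10 and AT4G38410. RAB18 had 33.9% glycine and a net charge of 0, and it shared 67.7% of aligned residues with XERO1. HIRD11 was the shortest protein, at 98 residues, with 13.3% histidine. XERO2 had 13.5%, and the acidic branch had 3.24% to 4.91%.

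The dehydrins differed widely in abundance. Per gene length, in the deposited RPKM, which are reads scaled to kilobases of gene and to library size, HIRD11 was the most abundant member in every library, at 723 to 868 RPKM in ahl10-1 stress, 653 to 750 RPKM in ahl10-1 control, 818 to 844 RPKM in WT stress and 691 to 755 RPKM in WT control. ERD14 came next, between 216 and 392 RPKM over the 12 libraries, and then COR47, between 126 and 217 RPKM. The 2 ranges overlapped slightly across groups, but ERD14 was above COR47 within every library. ERD10 ranged from 51.5 to 99.6 RPKM and XERO2 from 21.3 to 54.2 RPKM, so these neighbours in the order overlapped across groups as well. XERO1, AT4G38410 and AT2G21490 never exceeded 3.99 RPKM and their ranges overlapped one another, and AT4G39130 reached 0.271 RPKM at most.

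RAB18 moved within this order. It had rank 4 in the ahl10-1 stress means, at 102 ± 62.6 RPKM beside 86.1 ± 14.5 RPKM for ERD10, and rank 6 in the WT control means, at 10.4 ± 2.36 RPKM beside 26.2 ± 4.28 RPKM for XERO2 (SD, n = 3 each). The gap between RAB18 and ERD10 in ahl10-1 stress was smaller than the spread of RAB18 between libraries. The deposited gene lengths differed from the RefSeq exon lengths for several members, with 1.219 kb against 2.32 kb for COR47 and 0.728 kb against 1.113 kb for HIRD11. With the RefSeq lengths the ranks of the 10 group means were the same in both ahl10-1 groups and in WT control. In WT stress RAB18 had rank 5 with the RefSeq lengths and rank 4 with the deposited ones, trading places with ERD10, and XERO1 and AT4G38410 traded ranks 7 and 8.

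**Figure D1:**
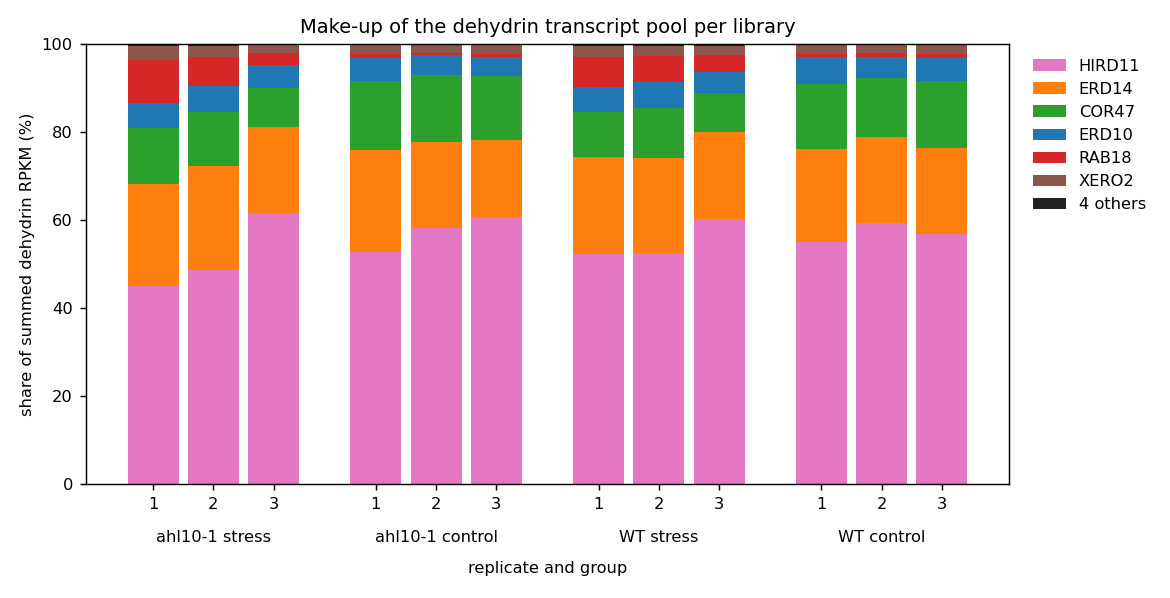
Share of each dehydrin in the summed dehydrin RPKM of each library (vertical axis, percent), with the 3 replicates of the 4 groups along the horizontal axis. HIRD11 made up 45.1% to 61.7% of the sum in every library, and the RAB18 band was 2.93% to 9.74% in ahl10-1 stress and 3.81% to 6.88% in WT stress, against at most 1.05% in the control libraries. Shares rest on the deposited gene lengths.

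The summed dehydrin level was 1534 ± 154 RPKM in ahl10-1 stress and 1207 ± 53.9 RPKM in ahl10-1 control, and 1510 ± 93.8 RPKM in WT stress and 1287 ± 110 RPKM in WT control (SD, n = 3 each). HIRD11 and ERD14 held most of the sum in every library, and the stacked plot shows stress and control apart in smaller shares. RAB18 held 6.40% ± 3.41 of the sum in ahl10-1 stress and 0.79% ± 0.25 in ahl10-1 control, and 5.52% ± 1.57 in WT stress and 0.81% ± 0.20 in WT control. The share of COR47 was 11.3% ± 1.98 in ahl10-1 stress and 15.1% ± 0.53 in ahl10-1 control, and 10.2% ± 1.21 in WT stress and 14.5% ± 0.89 in WT control. For both genes the stress and control libraries of each genotype did not overlap in share. The same held in WT alone for XERO1 and AT4G38410. A share also depends on the other members, and the COR47 levels in CPM overlapped between stress and control in both genotypes. How often genes at large are so separated in share was not computed. The sum was not tested, because its members were chosen together. Sums and shares rest on the deposited gene lengths and were not computed with the RefSeq lengths. With the RefSeq lengths the ahl10-1 stress mean was 515 in place of 787 RPKM for HIRD11 and 91.9 in place of 175 RPKM for COR47.

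The first question was which dehydrins responded to low water potential in each genotype. In ahl10-1, 4 of the 9 tested dehydrins passed the test (edgeR quasi-likelihood, adjusted p under 0.05), all of them higher under stress: RAB18, XERO1, ERD10 and ERD14. Over all tested genes 27.8% passed in this comparison and 14.2% passed as higher. In WT, 2 of the 9 passed, both higher: RAB18 and AT4G38410. Over all tested genes 24.2% passed in WT and 11.7% passed as higher, so the WT count of dehydrins lay near that of genes at large. The median log2 fold change of the 9 dehydrins was 0.65 in ahl10-1 and 0.40 in WT, beside 0.00 over all tested genes in either genotype. A gene called in one genotype and not in the other is not thereby shown to differ between them, and that difference was tested separately for each member, as given further on.

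**Figure D2:**
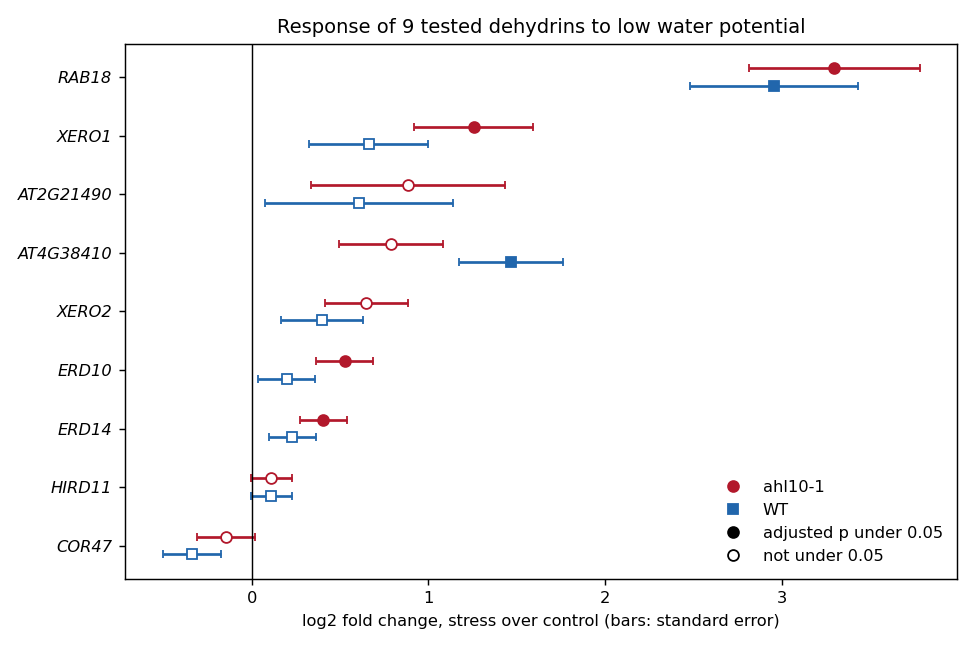
Log2 fold change of stress over control (horizontal axis) of the 9 tested dehydrins (vertical axis), in ahl10-1 (circles) above WT (squares), with bars of 1 standard error and filled symbols for an adjusted p under 0.05 (edgeR). RAB18 lay at 3.30 in ahl10-1 and 2.96 in WT, and COR47 was the only member with a negative estimate in both, at -0.14 and -0.34.

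RAB18, the abscisic acid-responsive dehydrin with Y segments, gave the largest response of the family. Its level was 151, 90.7 and 41.0 CPM in ahl10-1 stress (replicates 1, 2 and 3) against 12.3, 6.26 and 10.2 CPM in ahl10-1 control. In WT it was 97.3, 83.1 and 49.2 CPM under stress against 7.75, 10.0 and 11.8 CPM in control. Every stress library was above every control library, and the stress libraries themselves varied widely, with replicate 3 the lowest in both genotypes. The log2 fold change was 3.30 (SE 0.48, adjusted p = 8.91e-04, edgeR) in ahl10-1, a 9.82-fold rise, and 2.96 (SE 0.48, adjusted p = 0.0017) in WT, a 7.76-fold rise.

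XERO1 is a small relative of RAB18 with the same domain order and a far lower level. It had 2.63, 2.13 and 1.28 CPM in ahl10-1 stress against 1.15, 0.416 and 0.967 CPM in ahl10-1 control, and 1.58, 1.41 and 1.38 CPM in WT stress against 0.946, 0.860 and 0.961 CPM in WT control. The stress libraries were above the control libraries in each genotype, by a narrow margin between the lowest stress and the highest control library in ahl10-1. The log2 fold change was 1.26 (SE 0.34, adjusted p = 0.016, edgeR) in ahl10-1 and 0.66 (SE 0.34, adjusted p = 0.18) in WT. Without replicate 1 of ahl10-1 stress the ahl10-1 value was 1.02 with an adjusted p of 0.0685. When each genotype was fitted alone, the adjusted p was 0.065 in ahl10-1 and 0.041 in WT, so the call was lost in ahl10-1 and gained in WT.

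AT2G21490, the third member with a Y segment, had only 14 to 78 reads per library. Its level was 0.714 ± 0.507 CPM in ahl10-1 stress and 0.384 ± 0.156 CPM in ahl10-1 control, and 0.786 ± 0.228 CPM in WT stress and 0.519 ± 0.212 CPM in WT control (SD, n = 3 each). The groups overlapped and neither difference passed the test, with log2 fold changes of 0.88 (SE 0.55) and 0.60 (SE 0.53). The spread between libraries was wide, with 15 and 78 reads in replicates 1 and 2 of ahl10-1 stress.

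**Figure D3:**
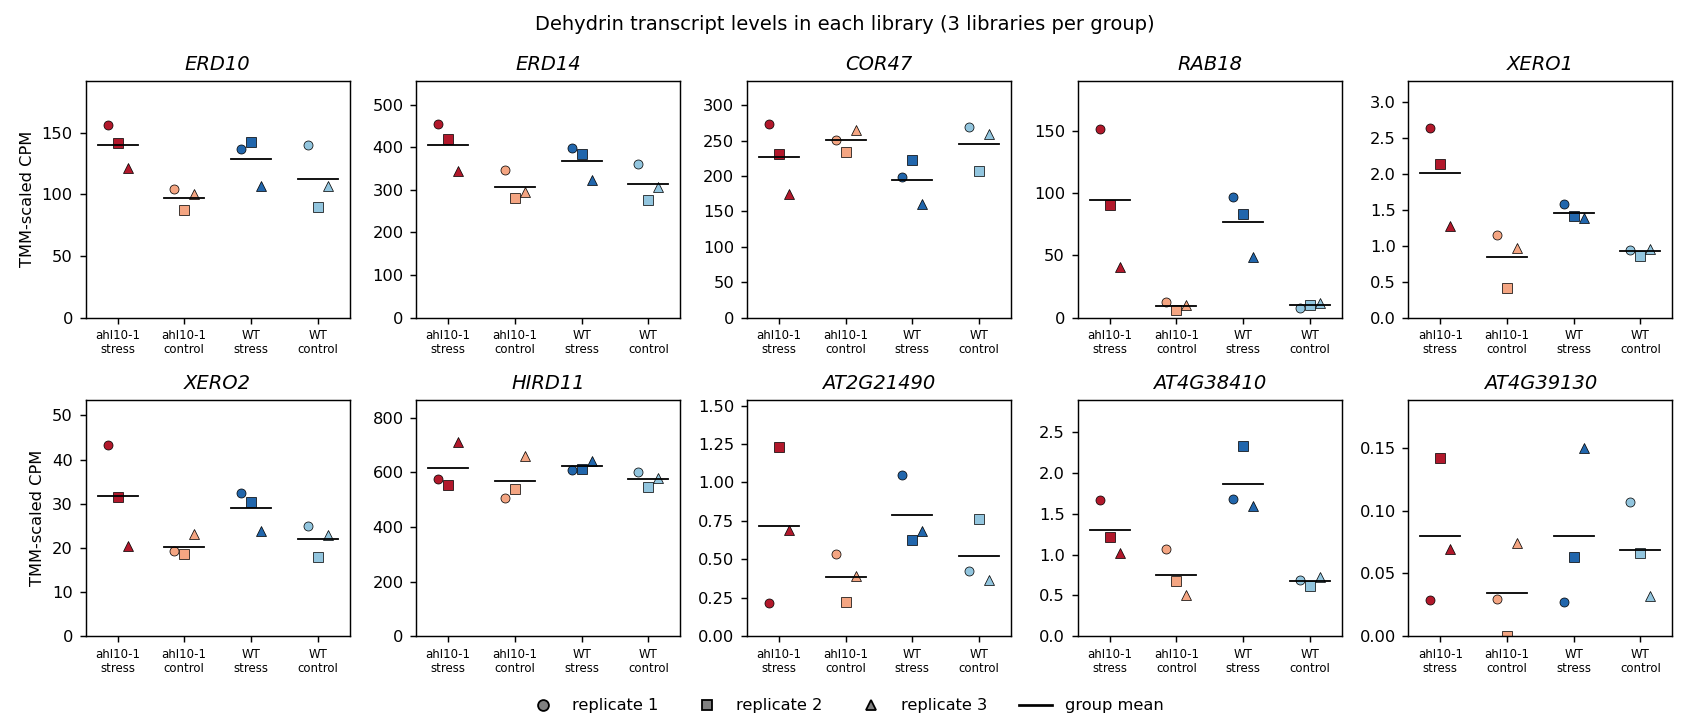
TMM-scaled CPM (vertical axes, each from 0 on its own scale) of the 10 dehydrins in the 12 libraries, with groups along the horizontal axis, symbols for the replicate number and a line at each group mean. RAB18 shows the widest separation of stress from control, and in 7 of the 10 panels replicate 3 is the lowest library of both stress groups. The share of all tested genes with that order was not computed.

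Within the acidic branch the members went different ways. ERD10, a stress-induced dehydrin with chaperone activity in vitro, had 156, 142 and 121 CPM in ahl10-1 stress against 104, 87.2 and 99.9 CPM in ahl10-1 control, with no overlap between the groups. In WT it had 137, 143 and 107 CPM under stress against 140, 89.7 and 107 CPM in control, and these groups overlapped. ERD10 rose in ahl10-1 by 0.53 on the log2 scale (SE 0.16, adjusted p = 0.031, edgeR), while the WT value was 0.20 (SE 0.16, adjusted p = 0.41).

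The WT control library of replicate 1 stood out for ERD10, and it also held the highest transcript levels of 2 DRE-binding factors, with 9.52 CPM of CBF1 and 23.9 CPM of CBF2 against at most 1.25 and 5.81 CPM in the 11 other libraries. In that library 6 of the 10 dehydrins had their highest WT control level, and the share of all tested genes with the same order was not computed. These 6 include the untested AT4G39130, which had only 2 to 7 reads per WT control library. Without this library the WT response of ERD10 was 0.39 (adjusted p = 0.092) and that of ERD14 was 0.34 (adjusted p = 0.12, edgeR). The part of CBF1 and CBF2 in these levels was not tested.

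ERD14, which binds calcium after phosphorylation by casein kinase 2 (CK2), had 454, 420 and 345 CPM in ahl10-1 stress against 346, 281 and 294 CPM in ahl10-1 control. In WT it had 398, 384 and 323 CPM under stress against 360, 275 and 308 CPM in control. In both genotypes the stress libraries of replicates 1 and 2 were above all control libraries, and that of replicate 3 was below the highest control library. The log2 fold change was 0.40 (SE 0.13, adjusted p = 0.041, edgeR) in ahl10-1 and 0.23 (SE 0.13, adjusted p = 0.24) in WT.

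The ahl10-1 calls of ERD10 and ERD14 did not hold without each library in turn. Both were lost when replicate 1 or 2 of ahl10-1 stress or replicate 2 or 3 of ahl10-1 control was left out, with estimates of 0.44 to 0.55 for ERD10 (adjusted p = 0.070 to 0.11) and 0.32 to 0.38 for ERD14 (adjusted p = 0.11 to 0.15, edgeR). Over all tested genes, the number passing in ahl10-1 fell from 6277 to 4811, 4525, 5511 and 4606 in these fits, in that order. The call of ERD14 was also lost, at adjusted p = 0.052 and 0.055, without replicate 1 or 2 of WT stress, libraries outside this contrast, and at 0.064 when only the ahl10-1 libraries were fitted.

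COR47, named for its induction by cold, had negative estimates in both genotypes, and neither passed the test. It had 273, 232 and 175 CPM in ahl10-1 stress against 251, 234 and 266 CPM in ahl10-1 control, and 198, 223 and 160 CPM in WT stress against 269, 207 and 259 CPM in WT control. Groups overlapped in both genotypes, and the log2 fold changes of -0.14 (SE 0.16, adjusted p = 0.55) and -0.34 (SE 0.16, adjusted p = 0.16) did not pass the edgeR test. Without replicate 3 of ahl10-1 stress the ahl10-1 value was 0.01.

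XERO2, also called LTI30 for its induction by low temperature, is a basic protein whose K segments bind membranes. It had 43.4, 31.4 and 20.5 CPM in ahl10-1 stress against 19.2, 18.6 and 23.1 CPM in ahl10-1 control, and 32.5, 30.4 and 23.9 CPM in WT stress against 25.0, 18.0 and 22.9 CPM in WT control. In each genotype replicates 1 and 2 under stress were above all control libraries and replicate 3 was within their range. The log2 fold changes of 0.65 (SE 0.23, adjusted p = 0.062) and 0.40 (SE 0.23, adjusted p = 0.25) did not pass the edgeR test. Without replicate 3 of ahl10-1 stress the ahl10-1 value was 0.88 with an adjusted p of 0.006, and with DESeq2 on all libraries it was 0.64 with an adjusted p of 0.020.

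HIRD11, the histidine-rich dehydrin that binds metal ions, had the estimates nearest 0. It had 614 ± 84.9 CPM in ahl10-1 stress and 569 ± 81.5 CPM in ahl10-1 control, and 621 ± 17.2 CPM in WT stress and 575 ± 28.0 CPM in WT control (SD, n = 3 each). The WT stress libraries, from 610 CPM, were all above the WT control libraries, up to 601 CPM, while the ahl10-1 groups overlapped. The log2 fold change was 0.11 (SE 0.12) in each genotype, with adjusted p = 0.52 in ahl10-1 and 0.53 in WT (edgeR). Unlike most members, HIRD11 was highest in replicate 3 of both stress groups.

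AT4G38410, for which no further role is given here, was a low-level member with 27 to 148 reads per library. It had 1.67, 1.22 and 1.02 CPM in ahl10-1 stress against 1.07, 0.672 and 0.502 CPM in ahl10-1 control, and 1.68, 2.33 and 1.60 CPM in WT stress against 0.686, 0.612 and 0.721 CPM in WT control. The WT groups were well apart, and the ahl10-1 groups overlapped narrowly. It rose by 1.47 on the log2 scale in WT (SE 0.29, adjusted p = 0.0039, edgeR), a 2.77-fold change, and its ahl10-1 value was 0.79 (SE 0.29, adjusted p = 0.065). In a fit of the 6 ahl10-1 libraries with the replicate number as a block, the ahl10-1 value was 0.82 with an adjusted p of 0.048, and DESeq2 gave 0.78 with an adjusted p of 0.040. AT4G39130 stood at 0.080 ± 0.057 CPM in ahl10-1 stress, 0.035 ± 0.037 CPM in ahl10-1 control, 0.080 ± 0.063 CPM in WT stress and 0.068 ± 0.037 CPM in WT control, close to the 0.041 to 0.056 CPM that 3 reads are worth.

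By separation of libraries alone, the stress libraries were all above the control libraries for 3 of the 10 dehydrins in ahl10-1 (RAB18, XERO1 and ERD10), where 21.1% of all tested genes were so separated, and for 4 of the 10 in WT (RAB18, XERO1, HIRD11 and AT4G38410), where 21.8% were. No dehydrin had all stress libraries below all control libraries, a separation found for 19.1% of tested genes in ahl10-1 and 21.6% in WT. For 7 of the 10 dehydrins replicate 3 was the lowest library of both stress groups, the exceptions being HIRD11, AT2G21490 and AT4G39130. The share of all tested genes with this order of libraries was not computed, so it is not shown to be particular to dehydrins.

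The authors' deposited table for WT gave an adjusted p under 0.05 for 5 dehydrins. The share of all genes under 0.05 in the authors' deposited table was not computed, so this count is not set against genes at large. The DESeq2 fit made here called 6592 of 22604 tested genes in WT. In the authors' deposited table RAB18 had a log2 fold change of 2.68 (adjusted p = 6.93e-38) and AT4G38410 had 1.26 (adjusted p = 2.79e-06). The further genes under 0.05 in the authors' deposited table were XERO1 with 0.59 (adjusted p = 0.0353), XERO2 with 0.38 (adjusted p = 0.0374) and COR47 with -0.33 (adjusted p = 0.0499). The signs were those of the edgeR values given above. No authors' table of the stress response in ahl10-1 was used here.

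The second question was whether the mutation changed the dehydrins. None of the 9 tested dehydrins passed the edgeR test between ahl10-1 and WT under stress, where 0.0265% of all tested genes did, or in control, where 0.0177% did. No dehydrin had an unadjusted p under 0.05 in either comparison, and DESeq2 called 0 in both. Under stress 6 of the 9 estimates were positive. The widest were AT4G38410 at -0.52 (SE 0.28, unadjusted p = 0.091), XERO1 at 0.47 (SE 0.33), RAB18 at 0.30 (SE 0.43) and COR47 at 0.22 (SE 0.16). In control 2 of the 9 were positive, and the widest were AT2G21490 at -0.43 (SE 0.56) and ERD10 at -0.21 (SE 0.16). The ahl10-1 and WT libraries overlapped for all 10 dehydrins in both treatments, where 11.9% of all tested genes under stress and 7.67% in control did not overlap.

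Some of these genotype estimates changed sign with the library left out. The log2 difference of RAB18 under stress was 0.65 without replicate 3 of ahl10-1 stress and -0.22 without replicate 1 of that group. In the authors' deposited table for ahl10-1 against WT under stress, the smallest p of a dehydrin was that of AT4G38410, with a log2 fold change of -0.17 (p = 0.0553, adjusted p = 0.856), a smaller change than the -0.52 fitted here. Whether the authors shrank their fold changes is not given in the sources used here.

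The difference between the responses of the genotypes, tested as an interaction, passed for none of the 9 dehydrins and for 0% of all tested genes. Its estimate was near 0 for HIRD11 (0.00), whose sign changed with the setting. It was positive for 7 members, with XERO1 at 0.59 (SE 0.47), RAB18 at 0.34 (SE 0.63) and ERD10 at 0.33 (SE 0.23), and negative for AT4G38410 at -0.68 (SE 0.41, unadjusted p = 0.13, edgeR). No dehydrin had an unadjusted p under 0.05. XERO1, ERD10 and ERD14, called in ahl10-1 alone, and AT4G38410, called in WT alone, are thus not shown to respond differently in the 2 genotypes. Averaged over treatments, the genotype difference of the dehydrins lay between -0.29 (AT2G21490) and 0.17 (XERO1), with 0 called beside 0.0708% of all tested genes, and no unadjusted p was under 0.05.

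Both tandem pairs of the family gave a comparison within each library, free of differences in library scaling. ERD10 and COR47 lie head to tail on chromosome 1 with a gap of 1029 bases and no gene between them, and XERO2 and XERO1 on chromosome 3 with a gap of 313 bases. The log2 ratio of ERD10 to COR47 in RPKM was -1.13, -1.03 and -0.85 in ahl10-1 stress against -1.59, -1.75 and -1.73 in ahl10-1 control. In WT it was -0.86, -0.97 and -0.91 under stress against -1.27, -1.53 and -1.60 in control. All 6 stress libraries were above all 6 control libraries.

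Averaged over genotypes the ratio of ERD10 to COR47 was higher under stress by 0.62, with 0.69 in ahl10-1 and 0.55 in WT. The exact permutation test within genotypes gave p = 0.005, two-sided, the smallest value that its 400 arrangements can give, and 0.01 after Benjamini-Hochberg adjustment over the 2 pairs. The direction held without any single library, with differences of 0.58 to 0.67. These neighbours on the same strand, 70.3% identical in aligned residues, thus differed in their response, although the WT response of neither gene passed the test on its own.

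**Figure D4:**
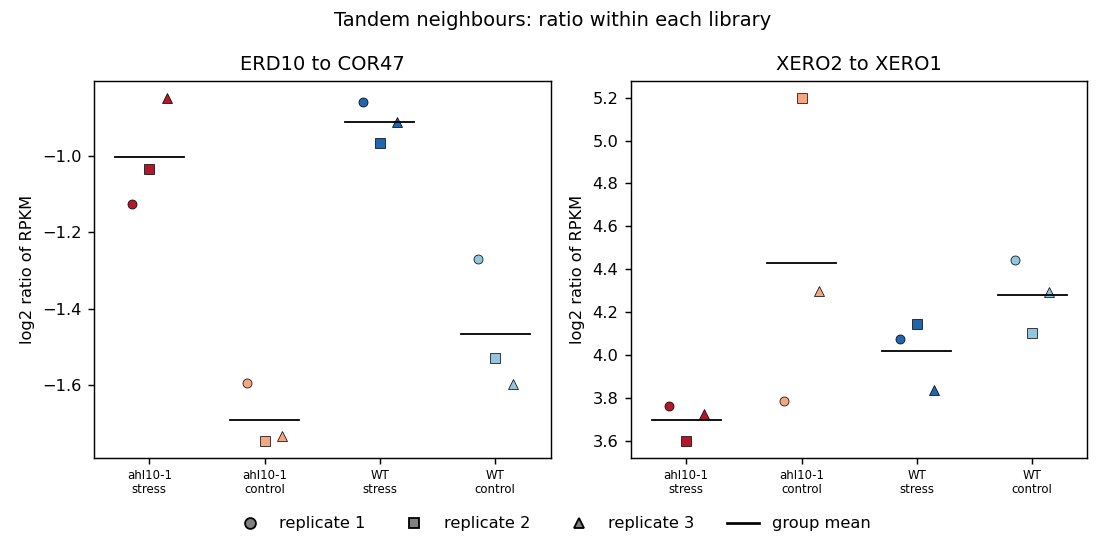
Log2 ratio of RPKM within each library (vertical axes) for ERD10 to COR47 (left) and XERO2 to XERO1 (right), with groups along the horizontal axis, symbols for the replicate number and a line at each group mean. For ERD10 to COR47 the stress libraries, from -1.13 up, are all above the control libraries, up to -1.27, while for XERO2 to XERO1 stress and control overlap.

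For XERO2 to XERO1 the log2 ratio was 3.76, 3.60 and 3.72 in ahl10-1 stress against 3.79, 5.20 and 4.30 in ahl10-1 control, and 4.08, 4.14 and 3.84 in WT stress against 4.44, 4.10 and 4.29 in WT control. The stress libraries were lower on average by 0.50, with -0.73 in ahl10-1 and -0.26 in WT (exact permutation p = 0.015, two-sided, adjusted 0.015). The highest control value came from ahl10-1 control replicate 2, in which XERO1 had 26 reads, and without that library the difference was -0.30. The exact p was 0.060 to 0.075 when any 1 of the 3 ahl10-1 stress libraries was left out, and 0.094 when stress and control libraries of the same number were paired.

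The likeness of patterns was measured as the root mean square difference of log2 CPM, each gene centred on its own mean over the 12 libraries, among 16525 genes, those with a mean of at least 5 CPM and the tested dehydrins whatever their level. The nearest gene to ERD10 was its relative ERD14, at 0.096, and the nearest outside the family was AT4G30460 at 0.101. COR47, the tandem neighbour of ERD10, ranked only 10619 for ERD10, at 0.337, and the nearest gene to COR47 was AT3G04010 at 0.102. XERO2 was nearest to AT4G30460 (0.155), with ERD10 at rank 9 (0.185) and ERD14 at rank 22 (0.202).

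The nearest dehydrin to RAB18 was AT4G38410, at rank 211 (1.10). Its 3 nearest genes were LEA4-5 (0.254), LTI65 (0.262), which is RD29B, and LEA7 (0.287), a late embryogenesis abundant protein of another family like LEA4-5. RD29B had 58.2, 32.4 and 19.2 CPM in ahl10-1 stress against 6.06, 1.98 and 4.39 CPM in ahl10-1 control, and 42.6, 55.0 and 17.2 CPM in WT stress against 3.39, 4.88 and 5.11 CPM in WT control. As with RAB18, replicate 3 was its lowest stress library in both genotypes. RD29B is described here for its likeness to RAB18 over these same libraries, so this adds no separate evidence. The nearest genes to the remaining members were AT1G23120 to ERD14 (0.074), CIPK25 to XERO1 (0.228), AT2G31490 to HIRD11 (0.048), CYP77B1 to AT2G21490 (0.442) and AT4G35720 to AT4G38410 (0.218).

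The upstream regions of all 10 dehydrins were searched for the ABRE core ACGTG and the DRE core CCGAC on both strands, in the 250 bases before the RefSeq gene start. The sites of RAB18, XERO1 and XERO2 are shown because the member with the largest response and the tandem pair on chromosome 3 held different cores. Sequences run 5′ to 3′ on the strand of the gene (RefSeq, TAIR10.1), and capitals mark the core or its reverse complement.
RAB18, 163 bases before the start (chr5:26519596-26519620, minus strand): acgacgatgtACGTGtgtatgaaaa
RAB18, 111 bases before the start (chr5:26519544-26519568, minus strand): gaggagcattACGTGtcctgttagc
RAB18, 18 bases before the start (chr5:26519451-26519475, minus strand): ttgatatgaaCACGTacttggtatc
XERO1, 62 bases before the start (chr3:18941853-18941878, plus strand): acgtaatcgcCACGTGtgtcacttca
XERO2, 101 bases before the start (chr3:18940532-18940556, plus strand): ttaaaattacGTCGGtcgctaacca
XERO2, 78 bases before the start (chr3:18940555-18940579, plus strand): cactactacaCCGACgtcttacttg
XERO2, 9 bases before the start (chr3:18940624-18940642, plus strand): cttttacgatGTCGGccaa

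RAB18 held 3 ABRE cores and no DRE core in this window, and XERO2 held 3 DRE cores and no ABRE core. XERO1 held 1 ABRE core, whose letters form a palindrome read on both strands and counted once. Of 27443 genes, 22.9% held at least 1 ABRE core and 4.98% at least 2, while 3285 genes held at least 1 DRE core and 1.41% at least 2. At least 1 ABRE core was in the window of 7 of the 10 dehydrins and at least 1 DRE core in that of 2, XERO2 and AT2G21490. In 500 bases before the start codon RAB18 had 4 ABRE cores and 1 DRE core, XERO2 had 1 and 3, XERO1 had 2 and 0, and ERD10 had 0 and 1. COR47 had 1 and 1, AT4G38410 and AT2G21490 each had 1 and 2, ERD14 and AT4G39130 each had 2 and 0, and HIRD11 had 1 and 0. Of all genes 34.8% held at least 1 ABRE core and 23.3% at least 1 DRE core in this longer window. RAB18 and XERO2 thus each held both cores there. A match describes letters only, and the RefSeq gene start of COR47 and others lies far upstream of the start codon. The RAB18 window also lies within the annotated exon of the divergent gene AT5G66410.

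Of 15 genes for ABRE- and DRE-binding factors and the kinases above them, 14 were tested. In ahl10-1, 9 were higher under stress and 0 lower, and in WT 8 were higher and 2, CBF1 and CBF2, lower. Among all tested genes 14.2% passed as higher in ahl10-1 and 11.7% in WT, and 13.5% and 12.5% as lower. ABF2, a bZIP factor that binds ABRE, had 58.7 ± 3.91 CPM in ahl10-1 stress and 32.9 ± 0.766 CPM in ahl10-1 control, and 54.6 ± 6.16 CPM in WT stress and 34.4 ± 0.571 CPM in WT control (SD, n = 3 each). ABI5, a related bZIP factor known from seeds and young seedlings, rose by 1.69 and 1.08 on the log2 scale in ahl10-1 and WT, and DREB2B, a DRE-binding factor, by 0.56 and 0.79. SNRK2.6, the kinase that phosphorylates ABF factors, rose by 0.40 and 0.45.

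The WT falls of CBF1 (-4.90) and CBF2 (-3.81) rested on few libraries. Without replicate 1 of WT control they were -2.56 (adjusted p = 0.089) and -2.34 (adjusted p = 0.037, edgeR), and neither was called without replicate 2 or replicate 3 of WT stress. The WT count of higher regulators ranged from 5 to 8 over left-out libraries. It was 5 without replicate 2 or 3 of WT control or without replicate 1 or 2 of WT stress. CBF3, also a DRE-binding factor and named after its values were seen, was low as well, with means of 0.521 CPM in ahl10-1 control and 1.72 CPM in ahl10-1 stress. It rose in ahl10-1 by 1.71 (adjusted p = 0.0057, edgeR), a call kept without each library in turn, and its WT value was 0.41 (adjusted p = 0.45). For the count of higher regulators in ahl10-1 the range was 6 to 10, and the count was 6 without replicate 1 of ahl10-1 stress.

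The kinase CK2 phosphorylates the serine stretch of acidic dehydrins. Of 8 genes for its catalytic and regulatory subunits, 1 was higher and 1 lower under stress in each genotype. These counts lay near the share of genes at large, as 27.8% of all tested genes passed in ahl10-1 and 24.2% in WT. CKA4, a catalytic subunit, fell by 0.34 in ahl10-1 and by 0.30 in WT on the log2 scale, and CKA2, another catalytic subunit, rose by 0.23 and 0.19. The call of CKA2 was lost without replicate 1 of ahl10-1 stress and, in WT, without replicate 1 or 2 of either WT group. CKA3 (0.13 and 0.11) and CKB2 (0.07 and 0.13) did not pass the edgeR test in either genotype.

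Of 10 stress-responsive genes outside the family, 9 rose under stress in each genotype, with a median log2 fold change of 2.68 in ahl10-1 and 2.42 in WT. Of all tested genes 14.2% and 11.7% passed as higher. The medians of the 9 tested dehydrins were 0.65 and 0.40, and RAB18, at 3.30 in ahl10-1, lay within the range of these genes there, 0.63 to 3.93. The caleosin gene RD20 rose by 3.28 and 3.39, and COR15A and COR15B, which encode chloroplast proteins induced by cold, rose by 3.93 and 3.69 and by 3.10 and 2.74, in ahl10-1 and WT. RD29A rose by 2.26 in ahl10-1 and by 2.11 in WT. None of the regulators, CK2 subunits or stress-responsive genes passed the edgeR test between genotypes, under stress or in control, where 4 regulators and 1 stress-responsive gene had an unadjusted p under 0.05 in control and none of them did under stress. Over all 22604 tested genes 1208 had such a p in control and 848 under stress.

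In whole seedlings fewer cells of a type and less RNA per cell cannot be told apart, and several dehydrins are known from guard cells or seeds. Over all tested genes 13.5% in ahl10-1 and 12.5% in WT passed as lower under stress, and 14.2% and 11.7% as higher. Of 5 guard cell markers 3 were lower under stress in each genotype, with a summed level of 54.8 to 66.9 CPM in ahl10-1 stress against 104 to 158 CPM in ahl10-1 control, and 47.1 to 55.6 CPM in WT stress against 113 to 136 CPM in WT control. Seed and embryo markers summed to 0.368 to 3.16 CPM over all libraries, with 3 of 7 tested and none called, and the 2S albumin genes AT4G27140 and AT4G27150 had 0 to 2 reads per library. Of 5 root markers 1 was higher in each genotype, a call lost in WT without replicate 2 of WT control or replicate 1 of WT stress. The root markers summed to 2934 to 4077 CPM in ahl10-1 stress against 3380 to 3495 CPM in ahl10-1 control, and to 3165 to 3285 CPM in WT stress against 3477 to 4248 CPM in WT control, with no overlap in WT. Single root markers mostly went the other way, with positive log2 fold changes for 4 of 5 in WT (median 0.38) and 5 of 5 in ahl10-1. Among single tested genes 21.6% were so separated as lower in WT. Of 5 green leaf markers 0 were lower in ahl10-1 and 1 in WT, a call lost without any single WT or ahl10-1 stress library. The green leaf markers summed to 18982 to 29921 CPM in ahl10-1 stress against 22816 to 39829 CPM in ahl10-1 control, and to 19543 to 22091 CPM in WT stress against 23052 to 30108 CPM in WT control, again with no overlap in WT. The part of these markers' levels in the dehydrin results was not tested.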

How the data were processed

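Each of the 12 libraries has a deposited table with 1 line per gene. Per the file headers it gives reads, gene length, RPKM and a multi-mapped fraction. The deposited reads are estimated counts, fractional in a few genes, and were rounded. The deposited RPKM are scaled by the authors to gene length and to a library total. The multi-mapped fraction deposited by the authors was 0 for every dehydrin. In 3 further tables the authors compared groups. These deposited columns hold the log2 fold change, its error, and raw and adjusted p-values, named as DESeq2 names them per the file headers. Base mean and statistic, scores that the authors also deposited, were not used. CASAVA, bcl2fastq 1.8.4, Bowtie2, DESeq2 and the build TAIR10 are named, per the submitters' processing notes. The counter, its annotation and its strand setting are not given in the sources used here.

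The main test was the robust quasi-likelihood test of edgeR 4.0.16 (R 4.3.3) on rounded counts with TMM scaling, after filterByExpr with a minimum count of 10 and a minimum total of 15. All 12 libraries shared 1 model of 4 group means with 8 residual degrees of freedom. Benjamini-Hochberg adjustment covered all 22604 tested genes, and calls needed an adjusted p under 0.05. Ratios of tandem genes were compared by exact permutation of treatment within genotype. Alternatives were other scaling factors, filters, DESeq2 1.42.0, the compared groups alone, a replicate block, limma 3.58.1 on log2 RPKM with a pseudocount of 1 or 0.1, leaving out multi-mapped reads, estimation that was not robust and leaving out each library. The fits were checked on simulated data. At 57996104 to 68555138 reads per library, 3 reads, the floor for a count of 0, are worth 0.041 to 0.056 CPM. That floor covers counting error only.

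The tables hold no coordinates. Sequences and coordinates are from RefSeq (TAIR10.1), features were computed with Biopython 1.88, and figures were drawn with matplotlib 3.10.9. Of the 33602 identifiers, 32835 were in that annotation.

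Replicate numbers come from the sample titles. Same-numbered ahl10-1 stress and control libraries had correlated deviations from the means of their groups (0.112, 0.110 and 0.188, all over 0.1), which held for all 3 numbers in no other pair of groups compared. For the stress groups of both genotypes they were 0.059, 0.052 and 0.105. Between the control groups of both genotypes they were 0.148, 0.169 and -0.0997, and between WT stress and WT control -0.0039, 0.016 and -0.040. A replicate block in the ahl10-1 libraries alone was added after these data were seen.

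The members, gene lists and tests were chosen with earlier results of these data known. All 10 dehydrins were named, with up to 4 genes per regulator, CK2 and stress-responsive list by the smallest p for stress in WT, and the nearest pattern for each member (3 for RAB18). CBF1 to CBF3 and the cell type markers were named after their values were seen. P-values measure the spread between these libraries.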

Additional observations from a re-analysis of the deposited data

How the results depend on the processing

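The count of dehydrins called for stress in ahl10-1 was 4, and it was 2 (RAB18 and ERD10) in a fit of the compared groups alone, where fewer libraries set the spread. It ranged from 1 to 5 over left-out libraries, with 1 without replicate 1 of ahl10-1 stress, and 2 without replicate 2 of either ahl10-1 group or replicate 3 of ahl10-1 control. The replicate block kept 4 in all libraries and gave 5 in the ahl10-1 libraries alone, and it changed no other call of a dehydrin. DESeq2 called 6. Over all tested genes, 6277 of 22604 passed in the main fit and 7271 with DESeq2. In the compared groups alone 4985 of 22162 passed, and 4811 of 22778 without replicate 1 of ahl10-1 stress. With the block 6474 of 22604 passed in all libraries and 6787 of 22162 in the ahl10-1 libraries alone. For stress in WT the count of dehydrins called was 2 without each library in turn. It was 3 in the compared groups alone, where 5391 of 22270 tested genes passed. The dehydrin count was 0 in every genotype comparison, the interaction and the average, under all alternatives run. The ratio of ERD10 to COR47 stayed between 0.58 and 0.67 without each library, and pairing of same-numbered libraries gave an exact p = 0.031, the smallest that pairing allows. The ratio of XERO2 to XERO1 ranged from -0.66 to -0.30, and its difference of -0.50 had an exact p = 0.094 under the replicate block.

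Of 490 fold changes of single dehydrins under alternatives other than left-out libraries, 6 changed sign, each with a value near 0. The HIRD11 interaction of 0.00 was -0.0084 with RLE factors and with DESeq2, -0.011 with upper-quartile factors and -0.00041 without a filter. COR47 in control was -0.029 with limma at either pseudocount. The cause was not tested. Over left-out libraries the following spanned 0, none of them called. For stress in ahl10-1, COR47 ranged from -0.30 to 0.0081 and HIRD11 from -0.011 to 0.235. For ahl10-1 against WT under stress, RAB18 ranged from -0.22 to 0.65, XERO2 from -0.16 to 0.36, HIRD11 from -0.15 to 0.052 and AT2G21490 from -0.81 to 0.29. In control, ERD14 ranged from -0.13 to 0.077, COR47 from -0.079 to 0.10, RAB18 from -0.26 to 0.19, XERO1 from -0.43 to 0.20, HIRD11 from -0.13 to 0.060 and AT4G38410 from -0.19 to 0.38. For the interaction, RAB18 ranged from -0.18 to 0.68, XERO2 from -0.041 to 0.47, HIRD11 from -0.14 to 0.11 and AT2G21490 from -0.38 to 0.72. AT4G39130 had too few reads to be tested.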
